A study of Drosophila melanogaster with 6 samples.

Results

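A set of 10 genes of the central spindle, the chromosomal passenger complex and cytokinesis were followed in Drosophila S2 cells given apoptotic fragments: feo, Klp3A, pav, tum, polo, aurB, Incenp, borr, sti and pbl. A gene counted as measured when the array annotation gave a probe set exactly 1 gene symbol and that symbol was one of these. By this rule 6 of the 10 genes were measured, feo, tum, aurB, Incenp, borr and pbl, each by 1 probe set, among 11982 genes with such a probe set. Klp3A, pav, polo and sti had no probe set listed under their own symbol and were not analysed here. The genes were chosen on their known roles with the log2 differences between the 2 groups of arrays already seen, that of feo against its partners in particular. The differences of the members are therefore a description, and the p-values beside them place each gene within the whole array and support nothing further.

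S2 is a macrophage-like, proliferating line made from embryos. In the group called fragments, 3 cultures received 25 membrane-bound pieces of apoptotic S2 cells per responding cell for 1 h at 25 °C. In the group called medium alone, 3 cultures were kept for the same time without fragments. All 6 cultures stood in medium with 1% serum, whereas the cells had been maintained in 10% serum. The pieces had been shed by S2 cells held in the translation inhibitor cycloheximide at 1.5 µg/ml for 24 h, so RNA or drug arriving with them was present in 1 group only, and its part in any difference cannot be told apart from that of the responding cells. The labels call the cultures biological replicates, and RNA of each was put on 1 Affymetrix array, so that 3 arrays per group set the precision. As RNA came from whole cultures, a lower value may mean fewer cells of a cell-cycle stage or less RNA per cell, which cannot be told apart here.

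At anaphase the antiparallel microtubules between the separating chromosomes are bundled into the central spindle, or midzone, which marks where the cell will divide. Fascetto, the product of feo, is the PRC1-family protein that crosslinks these microtubules, and the kinesin Klp3A acts with it. Tumbleweed (tum, also RacGAP50C) and the kinesin Pavarotti (pav) form centralspindlin, which recruits Pebble (pbl), the exchange factor needed to form the contractile ring. The kinase Aurora B (aurB) with its scaffold Incenp and the targeting subunit Borealin (borr) make up the passenger complex, which moves from centromeres to the midzone. Polo is a mitotic kinase that also acts there, and Sticky (sti), the citron kinase, stabilises the ring and midbody.

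On the deposited log2 scale, feo and borr were each over 2-fold lower with fragments, aurB was lower by a smaller amount, tum and Incenp stood near 0 difference, and pbl was slightly higher. So the transcripts of the bundling protein and of 1 subunit of the passenger complex differed by more than 1 log2 unit, while those of a centralspindlin subunit and of the passenger scaffold did not. The plot of single arrays shows the 6 genes side by side.

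**Figure D1:**
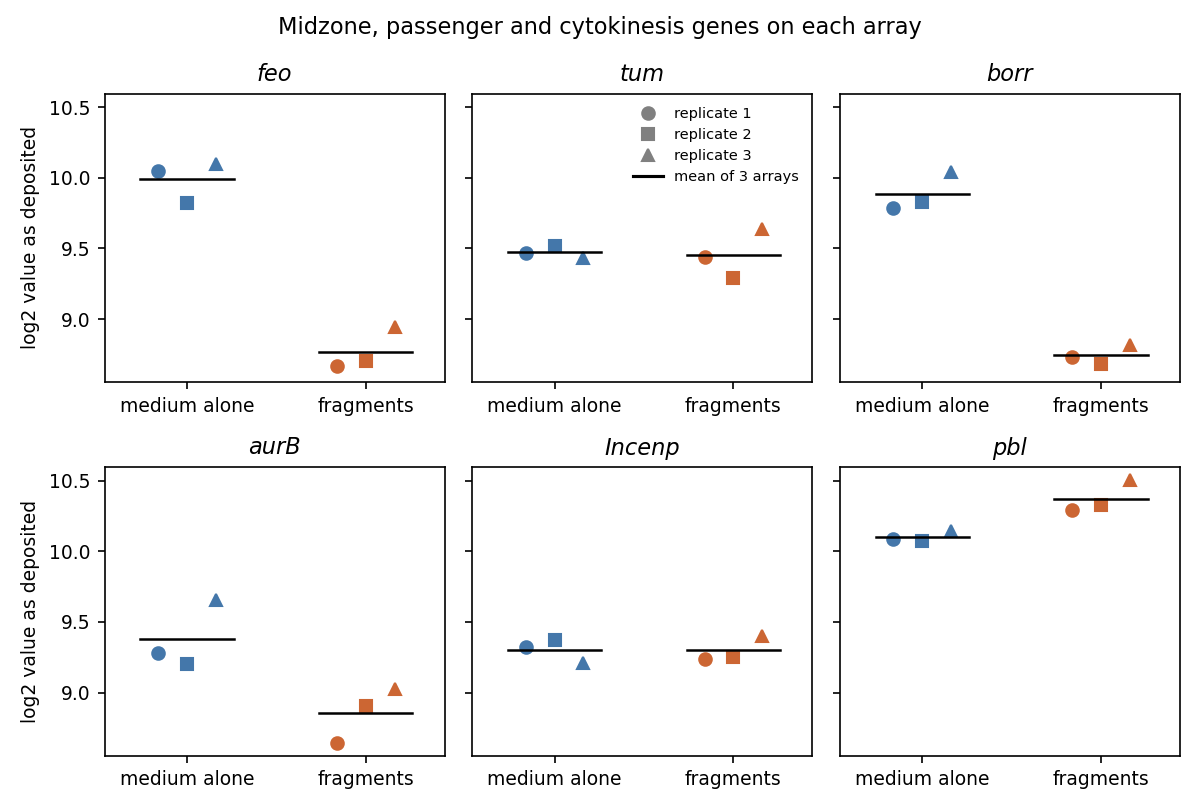
Log2 value as deposited (y axis) of each of the 6 measured genes on the 3 arrays of medium alone (blue) and the 3 of fragments (orange); symbols mark the replicate number and bars the mean of 3 arrays. The fragment arrays of feo and borr lie between 8.67 and 8.94 and between 8.68 and 8.81, below all medium-alone arrays of the same gene, whereas the 2 groups of tum and of Incenp overlap.

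The midzone bundling gene feo read 10.05, 9.82 and 10.10 in medium alone and 8.67, 8.70 and 8.94 with fragments (log2 values of replicates 1 to 3). The 2 groups were separated by a gap of 0.88 log2 units, wider than the spread within either group. The means were 9.99 ± 0.149 and 8.77 ± 0.149 (SD, n = 3), a log2 difference of -1.22 or a 2.33-fold lower value. In the limma fit over all 18769 probe sets it did not pass the threshold, an adjusted p of 0.05 (adjusted p = 0.0807). That fit included 11528 probe sets (61.4%) whose range over the arrays was under 0.01 log2 units, called flat here. Among the 7241 other probe sets, called varying, feo fell (limma adjusted p = 0.00591, 95% confidence interval -1.49 to -0.95).

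The other midzone gene measured, tum, read 9.47, 9.52 and 9.43 in medium alone and 9.44, 9.29 and 9.64 with fragments. The fragment arrays reached both above and below those of medium alone. Its log2 difference was -0.016, with a 95% interval of -0.25 to 0.22 among the varying probe sets (limma adjusted p = 0.956).

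Of the passenger complex, the Borealin gene borr read 9.79, 9.83 and 10.04 in medium alone and 8.74, 8.68 and 8.81 with fragments. The groups lay 0.97 log2 units apart, the widest gap among the 6 measured genes. The means were 9.89 ± 0.137 and 8.75 ± 0.066 (SD, n = 3), a 2.21-fold lower value. It stood just above the threshold over all probe sets (limma adjusted p = 0.0508) and fell among the varying ones (0.00309, 95% interval of the log2 difference -1.34 to -0.94).

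The kinase gene aurB read 9.28, 9.20 and 9.65 in medium alone and 8.65, 8.90 and 9.03 with fragments. The groups did not overlap, but the gap of 0.18 log2 units was smaller than the SD of the medium-alone arrays (0.241), on which replicate 3 stood above the others. The log2 difference of -0.52 (95% interval -0.91 to -0.13) missed the threshold in both fits (limma adjusted p = 0.12 for varying and 0.426 for all probe sets). Without medium-alone replicate 3 it was -0.38 (adjusted p = 0.117 among the varying probe sets).

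The scaffold gene Incenp read 9.32, 9.37 and 9.21 in medium alone and 9.24, 9.25 and 9.40 with fragments, with all arrays in 1 range. Its log2 difference was -0.0018 with an interval of -0.17 to 0.16 (limma adjusted p = 0.993 among the varying probe sets). The transcripts of 3 subunits of 1 complex thus had differences of -1.14, -0.52 and -0.0018.

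The cytokinesis gene pbl read 10.09, 10.07 and 10.14 in medium alone and 10.29, 10.33 and 10.50 with fragments. Each fragment array was above each array of medium alone, by a gap of 0.15 log2 units. The log2 difference was 0.27 (95% interval 0.11 to 0.44) and did not pass (limma adjusted p = 0.307 in the whole array and 0.0753 without flat probe sets).

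Over all probe sets 0 of the 6 measured members passed in limma, where 0.304% of the array did, and 4 of the 6 had an unadjusted p under 0.05. Among the varying probe sets 2 of the 6 passed, both lower, against 6.85% of probe sets in either direction and 4.56% lower. In 3 of the 6 the fragment arrays lay wholly below those of medium alone and in 1 wholly above, against 17.4% and 14.7% of the varying probe sets. These shares are given for scale, since the genes were picked with the same differences in view. Ranked from the largest fall among the 7241 varying probe sets, feo stood at position 30, borr at 44 and aurB at 301. A fall of at least 1 log2 unit was seen in 64 varying probe sets (0.884%), and the plot of all varying probe sets shows where the 6 members lie.

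**Figure D2:**
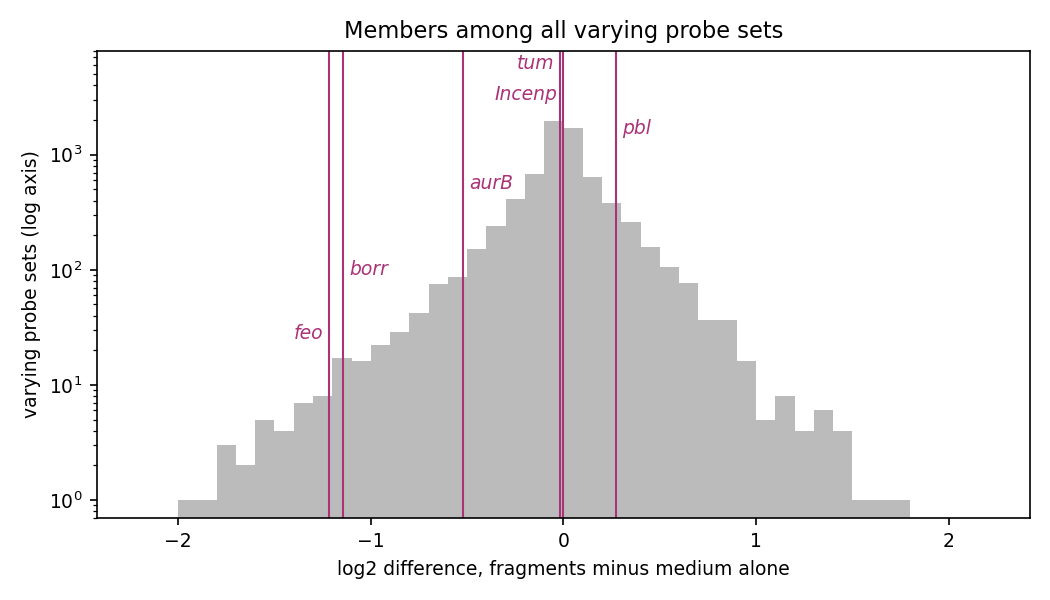
Number of varying probe sets (y axis, log scale) by log2 difference, fragments minus medium alone (x axis, in bins of equal width), with a line for each of the 6 measured members. The lines of feo and borr stand in the left tail beyond -1, that of aurB at -0.52, those of tum and Incenp next to 0 and that of pbl at 0.27.

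To set feo against the others array by array, the log2 value of each partner was subtracted from that of feo on the same array. Only the change of this quantity between groups is read, because levels of different probe sets are not comparable, and adding a constant to an array does not alter it. Against the mean of the 5 measured partners it went from 0.36 ± 0.125 in medium alone to -0.58 ± 0.036 with fragments (SD, n = 3). On single arrays it was 0.46, 0.22 and 0.40 in medium alone and -0.60, -0.59 and -0.54 with fragments, so the groups did not overlap. The change was -0.94 log2 units (SE 0.0748).

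Partner by partner the change differed. The largest drop of feo was that relative to pbl, -1.49 (SE 0.0729), as the 2 genes moved in opposite directions. Relative to Incenp it was -1.22 (SE 0.133), to tum -1.20 (SE 0.123) and to aurB -0.70 (SE 0.113), and in each of these the 2 groups were apart. Relative to borr it was -0.074 (SE 0.0995): feo minus borr was 0.26, -0.013 and 0.054 in medium alone and -0.066, 0.018 and 0.13 with fragments, with overlapping groups.

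**Figure D3:**
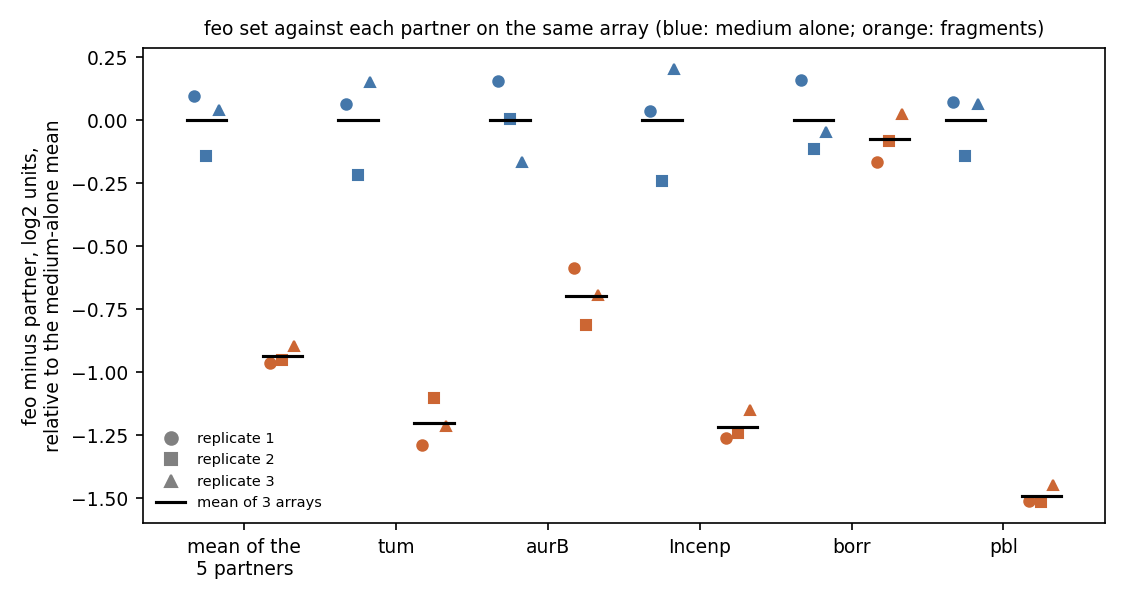
Log2 value of feo minus that of a partner on the same array (y axis, shifted so that the mean of medium alone is 0), for the mean of the 5 partners and for each of them (x axis); symbols mark replicate numbers and bars the mean of 3 arrays. All fragment arrays lie below those of medium alone except in the comparison with borr, where the groups overlap.

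The members also varied among arrays of 1 group. Fragment replicate 3 was the highest of the 3 fragment arrays in 6 of the 6 measured members, and in 47.2% of the varying probe sets. In medium alone replicate 3 was the highest in 4 of the 6, feo, aurB, borr and pbl, and in 40.5% of the varying probe sets, and it was the lowest for tum and Incenp. Replicates 1 and 2 of medium alone correlated at r = 0.9986 across varying probe sets, replicate 3 with them at 0.9793 and 0.9807, and the fragment arrays with each other at 0.9947 to 0.9976. With any 1 of the 6 arrays left out, feo and borr still passed among the varying probe sets (limma adjusted p of at most 0.0402 and 0.0264), with log2 differences of feo between -1.30 and -1.16. Over all probe sets 0 members passed under each of these omissions, with 2 or 3 members at an unadjusted p under 0.05.

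The scale mattered for the smaller differences. Setting each array to the mean of 18 probe sets for hybridisation spikes, foreign transcripts put on every array, added 0.262 to every log2 difference. On that scale feo was at -0.96, borr at -0.88 and aurB at -0.26, while tum, Incenp and pbl were at 0.25, 0.26 and 0.53. The direction of feo, borr, aurB and pbl thus stayed, and that of tum and Incenp turned.

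The 5 genes outside the list whose values followed feo most closely over the 6 arrays, by Pearson's r among 1967 varying single-gene probe sets with a range of at least 0.5 log2 units, were be (r = 0.9971), CG1575 (0.9968), Hmg-2 (0.995), Ugt316A1 (0.9948) and hfw (0.9944). Their log2 differences were -0.69, -0.45, -0.77, -1.53 and -0.72. An r over 0.95 was reached by 179 of the 1967 probe sets (9.1%). With 6 arrays in 2 groups, a high r mainly restates the gap between the groups. Among the members r with feo was 0.987 for borr, 0.895 for aurB, 0.154 for tum, 0.0349 for Incenp and -0.8 for pbl.

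In the RefSeq gene table (Release 6 plus ISO1 MT) 0 genes overlapped any of the 6 measured members. Of the nearest genes on either side, 10 had a single-gene probe set. Of these 10, 6 were flat and 0 passed in limma in either fit (1 had an unadjusted p under 0.05), with log2 differences from -0.30 to 0.40. The nearest genes of feo, CG2202 and sofe, differed by -0.038 and by less than the flat range. That of borr with a probe set, lectin-30A, was flat. Flat probe sets read nearly the same on all 6 arrays, also at high levels (Chmp1 of the abscission list at 9.43), and the origin of such values was not tested. Flat neighbours are therefore not read as a measured lack of change.

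Lists of related mitotic genes were read for comparison, 113 measured genes outside the members, of which 87 varied. Over all probe sets 0 of them passed in limma (17 had an unadjusted p under 0.05), and among the varying ones 1 rose and 1 fell, or 2.3% of the 87 against 7.64% of all varying genes. The rise was that of Klp31E, a kinesin gene, from 7.86 ± 0.087 to 8.15 ± 0.0094 (SD, n = 3; limma adjusted p = 0.0345 in the fit without flat probe sets), and the fall that of Septin5, a septin gene, from 7.48 ± 0.078 to 7.14 ± 0.074 (0.0352). Without medium-alone replicate 3, 10 of the 87 passed, 4 higher and 6 lower (11.5%, where 12.1% of the varying probe sets passed), and both Klp31E and Septin5 were among them (0.012 and 0.044). Of the 6 omissions of 1 array, this one gave the most calls among the varying probe sets, 876, beside 496 with all arrays. For the list genes outside the members the other omissions were not read.

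Taken 1 by 1, the lists also hold the 6 measured members, 119 genes of which 93 varied. The genes feo and tum are in the central spindle list, aurB, Incenp and borr in the passenger list and pbl in the contractile ring list. Among 15 measured central spindle and kinesin genes, 12 varied, with a median log2 difference of -0.0046, beside -0.0063 for all varying genes. Outside the members, the smallest p after Klp31E was that of Klp67A, a microtubule-depolymerising kinesin gene, with a difference of 0.31 that did not pass (limma adjusted p = 0.195 among the varying probe sets). Of 9 passenger complex and mitotic kinase genes, 7 varied (median -0.17), and borr was the single one that passed, lower with fragments. In 3 of the 7 (aurB, borr and gwl) the fragment arrays lay wholly below medium alone and in 0 wholly above. Among all varying probe sets these shares were 17.4% and 14.7%. As aurB and borr are members, picked with their differences in view, this count and the median are a description only. Of the varying genes outside the members, gwl lay apart, while Det, ball and Haspin overlapped. The survivin gene Det, the remaining subunit of the complex, differed by -0.17 (limma adjusted p = 0.678), gwl, the Greatwall kinase gene, by -0.17 (0.125), and SAK, the Plk4 kinase gene of centriole duplication, was flat. Of 24 contractile ring genes, 22 varied with a median of 0.10, and Mlc-c, a myosin light chain gene, differed by -0.083 (limma adjusted p = 0.165). The gene scra, which encodes the ring scaffold Anillin and was named after its values were seen, differed by -0.36 (0.2). Of 12 abscission genes 9 varied (median 0.16). The ESCRT-III genes shrb and Vps24, whose products act at the final cut, differed by 0.29 and 0.33 and did not pass (limma adjusted p = 0.0866 and 0.11). Without medium-alone replicate 3 Vps24 rose (0.433, adjusted p = 0.00341), as did the myosin phosphatase gene Mbs of the contractile ring list (0.391 and 0.00416, against 0.64 and 0.159 with all arrays). The medians then were -0.038 for the central spindle list, -0.048 for the passenger list, 0.0069 for the contractile ring list and 0.097 for the abscission list.

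Of 12 kinetochore and centromere genes 11 varied, with a median of -0.34, the lowest of the 7 lists. On the spike scale, where each difference is 0.262 higher, its median was -0.078 and those of the other 6 lists were above 0. Among these 11, 6 had fragment arrays wholly below medium alone and 1 wholly above, beside 17.4% and 14.7% of all varying probe sets, and 0 passed in limma (5 had an unadjusted p under 0.05). The abscission list leaned the other way, with 0 wholly below and 5 wholly above of 9 varying genes. In the contractile ring list these counts were 2 and 5 of 22, and in the central spindle list 1 and 2 of 12. They were 4 and 0 of 15 in the spindle checkpoint list and 3 and 3 of 17 in the spindle pole list. Spc25, a subunit of the NDC80 complex that holds microtubules, read 8.52, 8.44 and 9.18 in medium alone and 7.84, 7.83 and 7.87 with fragments (limma adjusted p = 0.0754). Medium-alone replicate 3 stood well above the others. Kmn1, a subunit of the Mis12 complex, read 8.28, 8.26 and 8.58 in medium alone and 7.80, 7.88 and 8.01 with fragments (0.0664). Without medium-alone replicate 3, Spc25, Kmn1 and the Mis12 complex gene Mis12 fell, with log2 differences of -0.632, -0.373 and -0.436 (limma adjusted p = 0.00241, 0.0344 and 0.0231), where 12.1% of the varying probe sets passed. The median of the kinetochore list was then -0.185.

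Of 24 genes of the spindle checkpoint, the anaphase-promoting complex and cohesin release, 15 varied (median -0.14). The activator gene fzy (Cdc20) differed by -0.30 and thr, which encodes a partner of separase, by -0.23, and neither passed (limma adjusted p = 0.0759 and 0.0853). Without medium-alone replicate 3 the median was -0.076 and 0 of the 15 passed. Of 23 genes of microtubule nucleation and spindle poles 17 varied (median -0.063). The augmin subunit gene msd5 differed by -0.73 (limma adjusted p = 0.0903; -0.53 and 0.0213 without medium-alone replicate 3), and mars was flat. Without that array msd1 fell and pins rose as well (-0.35 and 0.26; adjusted p = 0.0212 and 0.0459), and the median was -0.037. The plot of related lists places the members among these genes.

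**Figure D4:**
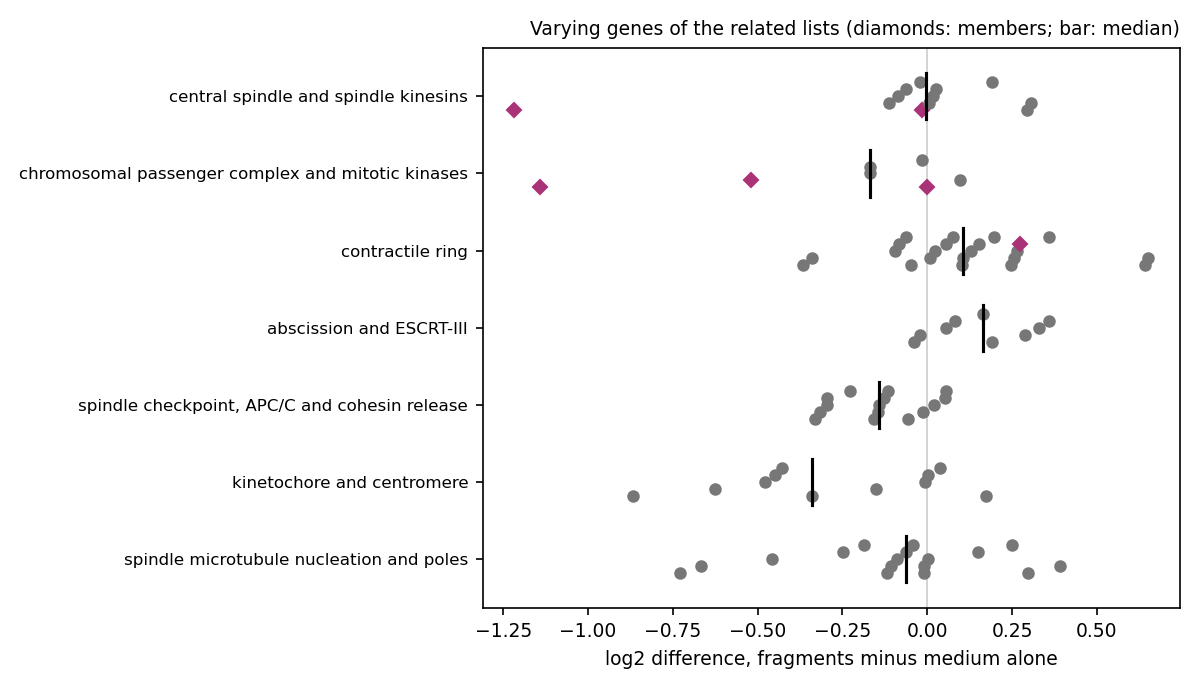
Log2 difference, fragments minus medium alone (x axis), of each varying gene of the 7 related lists (rows; height within a row only separates points). Diamonds are members, circles other genes and bars the medians; feo and borr lie below -1.1, and no circle lies below -0.87.

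The labelled cell type was checked by marker genes. Of 19 measured hemocyte markers 13 varied, among them srp (mean 10.7 in medium alone), Hml (9.3), drpr (9.2) and SPARC (12.4). Others that varied read low, as He (5.98), Pxn (6.88) and eater (6.97), while NimC1, lz, PPO1, PPO2, atilla and Mmp2 were flat. All 5 measured fat body markers and all 3 muscle markers were flat, as were 3 of 4 neuronal ones. The remaining neuronal marker, elav, varied, at 8.14 in medium alone and 8.435 with fragments. Varying or flat describes the range only, not presence, since chic of the contractile ring list was flat at 12.63. Of 5 germline markers bam rose, by 0.91 log2 units (limma adjusted p = 0.0224 without flat probe sets), and the list's mean went from 6.50 to 6.77 on the medium-alone arrays to 6.87 to 7.01 on the fragment arrays. Of the others, vas, aub and osk differed by -0.075, 0.40 and 0.17 and did not pass, and piwi was flat; without medium-alone replicate 3, the lowest of the 3 medium-alone arrays for all 4 varying ones, bam was at 0.80 (adjusted p = 0.0173), aub at 0.20 and osk at 0.030. Of 2 gut markers Try29F rose, by 0.38 (0.0185), with list means of 6.33 to 6.34 and 6.50 to 6.58. Among the 13 varying hemocyte markers, crq alone passed with all arrays, lower with fragments (limma adjusted p = 0.00559), where 6.85% of the varying probe sets passed. Without medium-alone replicate 3, 4 of the 13 fell (Ppn, drpr, crq and Pvr) and 1 rose (ush), where 12.1% of the varying probe sets passed. The part of any marker in the values of the members was not tested.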

How the data were processed

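The deposited values are log2 expression values, 1 per probe set and array, between 5.35 and 14.1. They were made with R 2.7.2, per the submitters' processing notes, with summarisation and normalization steps not given in the sources used here. Per the labels' protocols, 150 ng of total RNA went into the biotin labelling. Of 18952 probe sets, 183 manufacturer controls were left out and 18769 tested as deposited; 13647 had 1 gene symbol, 402 several and 4720 were unlisted. Groups came from sample titles. Fragments were compared with medium alone in limma 3.58.1 (R 4.3.3; lmFit, eBayes, two-sided, Benjamini-Hochberg adjustment), over all probe sets and without those of a range under 0.01, and the scripts were tested on simulated data. The flat probe sets drew the prior SD to 4.38e-09 (0.123 prior degrees of freedom; without them 0.0612 and 1.36). Replicates are called biological, but no shared day is given. The p-values set each difference between groups against the moderated spread among arrays within the groups. Members and lists were chosen with earlier results of these data known. A gene of several probe sets was represented by that of highest mean, and related genes were named as those called in a list or, with none called over all probe sets, the 2 of smallest p, beside the 5 closest to feo by Pearson's r; Det, scra, Mis12, Mbs, msd1, pins, the neighbouring genes and the markers were named after their values were seen. Alternatives were quantile normalization, spike and median scales, a minimum mean level of 7, eBayes with trend, probe sets of ambiguous suffix left out, a replicate block and each array left out. Each member had 1 probe set, so averaging probe sets gave no other value. No sequences were used.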

Additional observations from a re-analysis of the deposited data

How the results depend on the processing

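Arrays give no read depth, and 3 per group limit the precision. The counts of calls depended most on the processing. Over all probe sets 57 passed in limma (10 higher, 47 lower; 2031 at an unadjusted p under 0.05). It was 128 after quantile normalization (39 higher, 89 lower), 1685 on the spike scale (1492 higher, 193 lower), 696 after centring on the median of the varying probe sets (338 higher, 358 lower), 496 without flat probe sets (166 higher, 330 lower), 232 above a mean level of 7, 19 without ambiguous suffixes and 1490 on the spike scale without flat probe sets, an alternative added after the data were seen. Of the members 0 passed in the main setting. Among these alternatives 2 passed (feo and borr) after quantile normalization, without flat probe sets and above a mean level of 7. On the spike scale with or without flat probe sets and on the median scale 3 passed (with pbl), and with trend 1 (borr). The spike-scale fits had infinite prior degrees of freedom, or 740 without flat probe sets. The larger counts on the spike scale, and pbl passing there, are not read as stronger evidence. Leaving out 1 array gave 0 to 8 calls over all probe sets, 0 without medium-alone replicate 1 or 2 or fragment replicate 2 (1656, 1639 and 1432 at an unadjusted p under 0.05), and 129 to 876 among the varying ones, most without medium-alone replicate 3; in each of the former 0 members passed and in each of the latter 2.

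The log2 difference of feo kept its direction in 22 of 22 alternatives and passed in 13 of them: at -1.213 after quantile normalization, -0.9555 on both spike settings, -1.199 on the median scale and -1.217 without flat probe sets or above a mean of 7; it was -1.303 to -1.162 with 1 array left out. Its adjusted p ranged from 7.76e-10 on the spike scale, where the spikes' own spread enters the variance, to 0.353. On the spike scale limma estimated infinite prior degrees of freedom and a prior SD of 0.17, beside 0.123 and 4.38e-09 in the main setting. The SE of feo was larger there (0.139 against 0.12) and its difference smaller in size, so the low adjusted p is not read as stronger evidence. The change of feo minus partners was -1.038 without ambiguous suffixes, which removes borr and pbl, and -1.006 to -0.8867 with 1 array left out. The differences of tum and Incenp turned sign, at 0.000857 and 0.01026 after quantile normalization, 0.002277 and 0.01614 on the median scale, and 0.2462 and 0.2601 on the spike settings; with 1 array left out they ranged from -0.107 to 0.06808 and from -0.05345 to 0.03307. For these counts and signs the cause was not tested.

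Same-numbered arrays correlated in their deviations from the group means at 0.442, 0.0381 and 0.375, and differently numbered ones at -0.485 to 0.463. These values do not settle whether the numbers mark pairs. The numbers were not taken as pairs because the labels name no shared day. With the replicate number as a block, 0 probe sets passed over all (1868 at an unadjusted p under 0.05) and 449 among the varying ones, where 2 members passed, feo (-1.217) and borr.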
